A study of Mus musculus with 12 samples.

Results

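The mitochondrial respiratory chain and ATP synthase are built largely from proteins encoded in the nucleus, and the accessibility of those nuclear genes was followed here in mouse macrophages. The genes were the RefSeq protein-coding genes on autosomes and the X chromosome whose symbol begins with Nduf, Uqcr, Cox4i, Cox5, Cox6, Cox7, Cox8 or Atp5. This rule gave 92 of 21887 protein-coding genes, and no measured value entered it. Within 1 kb of their spans lay 129 of the 76042 accessible regions that were present in at least 2 of the 12 peak lists.

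The samples were RAW264.7 cells, a macrophage line, made into stable lines in which doxycycline induces either the nuclear receptor Nur77 or green fluorescent protein (GFP). Both lines, controls included, were given 1 µg/ml doxycycline for 18 h. They were then stimulated for 1 h with lipopolysaccharide (LPS), the endotoxin of bacterial walls, at 500 ng/ml, or left unstimulated. The 4 groups of 3 libraries are called Nur77 LPS, GFP LPS, untreated Nur77 and untreated GFP. The labels do not say whether a line is 1 clone or whether replicates were separate cultures, so p-values measure only the spread between these libraries, which may be technical.

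Complex I (NADH dehydrogenase), complex III (cytochrome bc1) and complex IV (cytochrome c oxidase) pass electrons to oxygen and pump protons, and ATP synthase uses the proton gradient to make ATP. Complex I has a catalytic core, many accessory subunits and dedicated assembly factors, while ATP synthase has a catalytic F1 head, a stalk and a membrane ring. Most subunits are made in every cell, but complex IV also has isoforms restricted to muscle, lung or testis. Macrophages activated by LPS are known for a shift from respiration towards glycolysis over hours.

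ATAC-seq tags open DNA with a transposase, and each library was deposited as 1 list of peaks. The lists held 36184 to 81467 peaks. The background height implied by each list, a stand-in for depth, ran from 0.402 to 1.45 reads, and a peak needed 5 to 8 reads at its summit to be listed. Where a list lacks a weak region, the region was below detection at that depth, which does not show closed chromatin. All 8 macrophage markers, among them Spi1, Csf1r, Cd68 and Cd14, had a gene-end region called in all 12 libraries. The same held for 0 of 4 T cell markers, 0 of 4 epithelial markers, and 1 of 4 markers each of B cells (Cd79a), fibroblasts (Col1a1) and muscle (Ckm).

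Nearly every gene of the common respiratory machinery had constantly accessible chromatin. Of the 129 regions, 99 (76.7%) were called in all 12 libraries, against 34.7% of all regions. Position matters to this share, since regions within 1 kb of either end of any gene were called in all 12 libraries in 71.1% of cases. Of the 107 such regions of the respiratory genes, 94 were. Away from gene ends, 5 of the 22 regions were constant, against 26.3% of all such regions. By gene, 84 of 92 (91.3%) had a region called in all 12 libraries, against 58.0% of the other protein-coding genes.

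Prominence is given as a percentile, the rank of a peak by the authors' -log10 q within its own list, with 100 the strongest. Taking the strongest constant region of each gene, the median was 84.9 for the respiratory genes and 86.5 for the other genes. RefSeq places another protein-coding gene within 1 kb of 54 of the 129 regions (41.9%), so that a peak near one gene can also belong to its neighbour.

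All 7 core subunits of complex I had a constant region, with a median percentile of 95.4. The highest belonged to Ndufs7 (99.4 ± 0.356) and Ndufs8 (98.9 ± 0.863), iron-sulphur subunits of the arm that passes electrons to ubiquinone, and the lowest to Ndufs3 (72.6 ± 9.17, SD, n = 12 libraries each). The strongest Ndufs7 region lies past the end of that gene and within 1 kb of Gamt and Dazap1, and the Ndufs8 region, 14755 bp wide, is shared with Aldh3b1 and Tcirg1. The region at the start of Ndufs7 stood at 93.8 ± 1.76 (SD, n = 12). All 30 accessory subunits also had a constant region, over the widest range of levels. Ndufa11 reached 96.9 ± 0.925, while Ndufa1, on the X chromosome, stood at 49.2 ± 15.7, Ndufs4 at 39.6 ± 12.8 and Ndufa9 at 36.6 ± 13.7 (SD, n = 12). All 8 assembly factors had one, led by Ndufaf8 at 98.6 ± 0.478, with Ndufaf1 lowest at 47.1 ± 16.2.

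The region at the annotated start of Ndufs4, an accessory subunit whose loss causes a Leigh-like disease in mice, reached no more than percentile 54 in any library. Its percentiles were 40.8, 40.5 and 39.5 in Nur77 LPS, 46.1, 41.1 and 50.6 in GFP LPS, 38.9, 2.07 and 41.2 in untreated Nur77, and 44.1, 54 and 36.5 in untreated GFP. One value stood apart, that of untreated Nur77 replicate 2, the library with the lowest background height, and the part of depth was not tested. The groups overlapped.

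In complex III all 8 genes had a constant region, from Uqcr11 at 74.0 ± 8.25 to Uqcrq at 98.1 ± 0.816. For ATP synthase, all 5 genes of the F1 head and all 12 of the stalk and membrane sector did, with a median of 85.2 in each set. The highest region of the first set, at 98.2 ± 0.915, lies at the far end of Atp5d, the delta subunit of F1, and is shared with Midn. The region holding the Atp5d start stood at 94.2 ± 2.63, beside 94.9 ± 2.61 for that of Atp5b, the catalytic beta subunit (SD, n = 12 each). Atp5g1, which encodes one copy of the c subunit of the membrane ring, was the highest of all 92 genes at 99.6 ± 0.295 (SD, n = 12). Its percentiles were 99.8, 99.1 and 99.7 in Nur77 LPS, 99.4, 99.5 and 99.8 in GFP LPS, 99.6, 98.9 and 99.8 in untreated Nur77, and 99.7, 99.8 and 99.7 in untreated GFP, so that the groups overlapped within 1 percentile. The genes Atp5g2 and Atp5g3, which encode the same mature c subunit, stood at 95.3 ± 1.53 and 76.4 ± 9.63.

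Complex IV was the only complex here with a common subunit that lacked a constant region. Of its 12 common subunits, 11 had a constant region, and Cox8a was the highest at 97.3 ± 1.15. The exception was Cox6c, whose single region (chromosome 15, 35937238 to 35938400) lies at one end of the gene. The region was called in 11 libraries, GFP LPS replicate 1 (background height 0.411) among them. It was missed in untreated Nur77 replicate 2, the library with the lowest background height (0.402), and the part of depth was not tested. Its percentiles were 29.7, 13.5 and 5.96 in Nur77 LPS, 28.4, 2.4 and 52.0 in GFP LPS, 38.9 and 39.4 in the other two untreated Nur77 libraries, and 33.1, 52.4 and 34.0 in untreated GFP. The mean was 30 ± 16.7 (SD, n = 11), and the LPS libraries ranged widely and overlapped with the untreated ones.

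Of the 8 tissue-restricted isoforms, 3 had a constant region (37.5%). These were Ndufa4l2 (90.8 ± 2.83), induced by hypoxia in other cells, Cox7a1 (85.8 ± 4.38), the heart and muscle form of subunit 7a, and Cox4i2 (68.2 ± 11.1, SD, n = 12 each), the lung form of subunit 4. The Ndufa4l2 region is 9123 bp wide and shared with Shmt2 and Stac3. This Cox4i2 region lies 266 bp outside the gene and is shared with Bcl2l1. The Cox7a1 region has no other protein-coding gene within 1 kb. Cox6a2 of muscle and Cox6b2 of testis were each called in 4 of 12 libraries, at 20 ± 17.7 and 32 ± 11.3 (SD, n = 4). Cox7b2, Cox8b and Cox8c had no region in 2 or more lists, and neither had Ndufb4b and Ndufb4c, copies of Ndufb4.

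**Figure D1:**
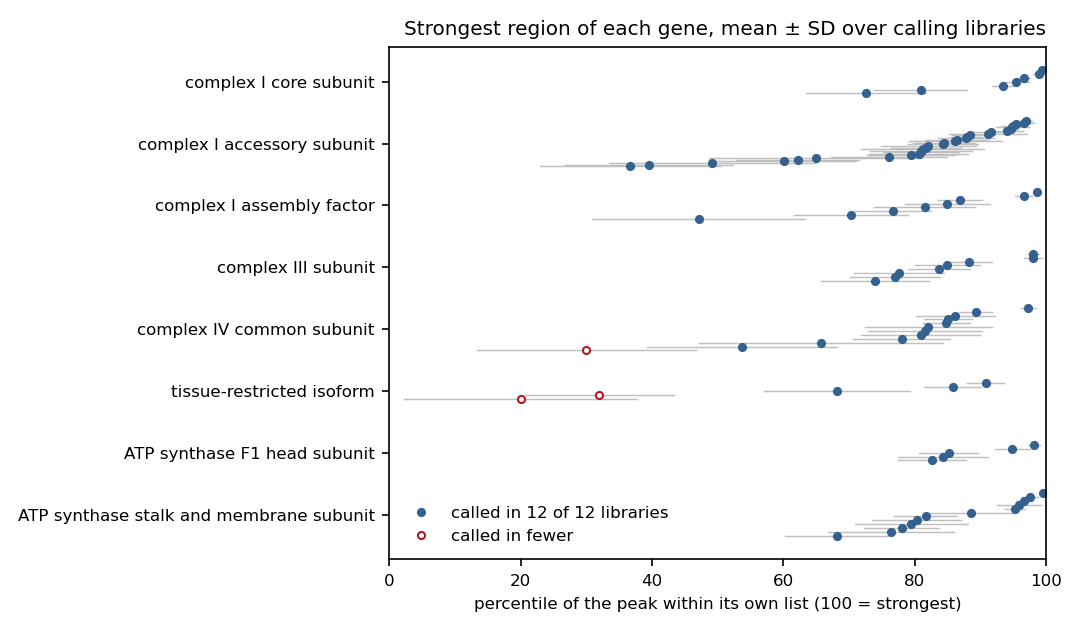
Percentile within its own peak list of the strongest region of each gene, averaged over the libraries that called it (points, with SD as horizontal lines), with genes grouped by role. Filled points were called in all 12 libraries and open points, Cox6c, Cox6a2 and Cox6b2, in fewer. Genes without a region are not drawn. Most common subunits lie above 60, and the low filled points include Ndufa9 and Ndufs4.

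Where RefSeq gives a start site, it lay inside a constant region in most of these genes. Of the 75 genes with an entry, 71 (94.7%) had their start inside a region called in all 12 libraries, against 48.9% of 17417 other genes. The exceptions were Cox6b2, Cox7b2, Cox8b and Ndufb4b, and the starts of 22 of the 75 genes lay within 1 kb of the start of another gene on the opposite strand. The strongest summit lay at a median of -41.5 bp from the start (negative is before it), close to the -44.0 bp of other genes. It lay within 100 bp of the start in 71.8% of the respiratory genes and 53.0% of the others, and within 200 bp in 93.0% and 76.7%. Where a gene has several start sites, the site nearest to its strongest summit was kept, in both sets. A start outside a constant region was kept only where no start of the gene lay inside such a region. The choice thus favours starts inside constant regions and short distances. These shares are descriptions without a test.

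**Figure D2:**
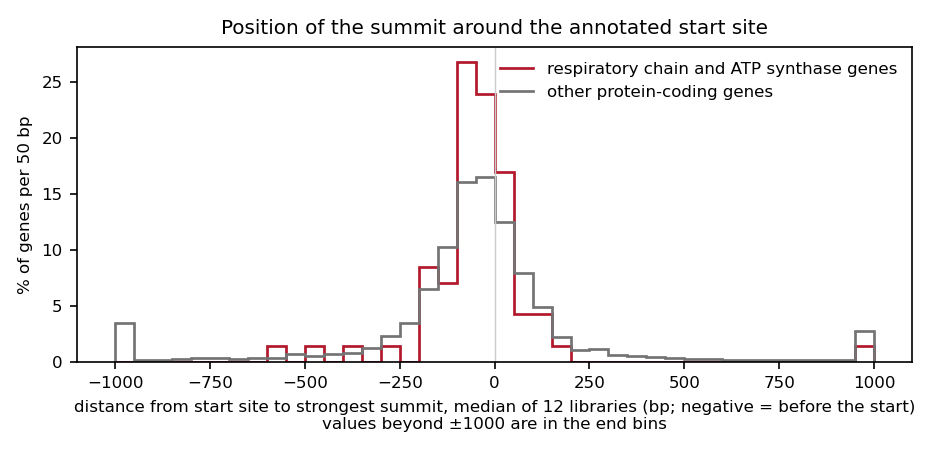
Distance from the RefSeq start site to the strongest summit (median of 12 libraries, in bp), as the percentage of genes per 50 bp, for 71 respiratory chain and ATP synthase genes and 8512 other protein-coding genes whose start lay in a region called in all 12 libraries. Both peak just before the start, and more of the respiratory genes fall within 100 bp of it. Where a gene has several start sites, the site nearest to the summit is used.

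Short motifs were searched in the 80 RefSeq promoters of these 75 genes (build GRCm38.p6, 250 bases before to 50 after the start, both strands). The window is fixed, and some summits lie outside it, such as that of Ndufa11 at -576.5 bp. The core of the site for NRF1, nuclear respiratory factor 1, an activator of respiratory genes, is the palindrome CGCATGCG. It was found in 11 promoters (13.8%), against 2.52% of all 21263 promoters and 4.53% of the 10172 promoters whose start lay in a constant region. Windows around it are shown for genes of each complex, from the coding strand, with the core in capitals. The windows for Ndufa8 (chr2:36049326-36049361), Uqcr11 (chr10:80406805-80406840), Cox6a1 (chr5:115349098-115349133), Atp5g2 (chr15:102671067-102671102) and Atp5k (chr5:108434427-108434462) are on the minus strand, and that for Ndufaf4 (chr4:24897957-24897992) is on the plus strand.
Ndufa8: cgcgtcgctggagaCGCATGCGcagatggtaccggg
Ndufaf4: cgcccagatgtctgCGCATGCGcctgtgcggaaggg
Uqcr11: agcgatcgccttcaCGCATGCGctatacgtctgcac
Cox6a1: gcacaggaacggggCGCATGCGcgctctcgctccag
Atp5g2: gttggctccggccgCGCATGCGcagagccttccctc
Atp5k: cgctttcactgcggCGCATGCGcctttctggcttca

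The core began at position -9 from the start in Ndufa8, -5 in Uqcr11, -41 in Atp5g2 and -49 in Atp5k, and at -112 in Ndufaf4 and -161 in Cox6a1. The median summit lay at 3.0 bp from the start in Ndufa8, -13.5 in Uqcr11, -68.0 in Atp5g2, -27.5 in Atp5k, -0.5 in Ndufaf4 and -115.5 in Cox6a1. The other promoters with the core were those of Atp5j, Atp5l, Ndufa11, Ndufaf5 and Uqcrc1. All 11 promoters had their start in a constant region.

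The YY1 motif ATGGCGGC was found in 8 promoters (10%), against 3.02% of all and 5.64% of those with a constant region. The 7 genes concerned are the assembly factor Ndufaf8 and the complex I subunits Ndufa9, Ndufb5, Ndufs4, Ndufs6, Ndufs7 and Ndufa7, whose 2 overlapping promoters share a single copy. In all 8 promoters it read on the coding strand, as in 65.1% of all promoters with the motif, and in 6 it lay after the start. The windows of Ndufs7 (chr10:80249462-80249483, plus strand), Ndufs6 (chr13:73328439-73328460, minus), Ndufs4 (chr13:114388049-114388070, minus) and Ndufa9 (chr6:126849105-126849126, minus) share the letters aag just before it, with the motif in capitals.
Ndufs7: aggccgaggccaagATGGCGGC
Ndufs6: gggtcaccggcaagATGGCGGC
Ndufs4: ttgcctacaggaagATGGCGGC
Ndufa9: cattgtgggagaagATGGCGGC

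The motif begins at position 28 after the start in Ndufs7, 37 in Ndufs6, 39 in Ndufs4 and 33 in Ndufa9. Ndufaf8 also has the letters aag just before its motif, which begins at position 14. Prominence varied among the regions that hold this motif. The mean percentiles were 98.6 for Ndufaf8, 95.4 for Ndufb5, 93.8 for Ndufs7, 86.2 for Ndufa7, 81.0 for Ndufs6, 39.6 for Ndufs4 and 36.6 for Ndufa9. The ETS motif CCGGAAG was in 21.2% of the promoters of the respiratory genes, 11.6% of all and 20.7% of those with a constant region. The Sp1 motif GGGGCGGGG was in 13.8%, 15.4% and 23.6% of the same sets, and the CRE TGACGTCA in 5.0%, 2.23% and 3.58%.

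The monomer element of Nur77, AAAGGTCA, was in 0 of the 80 promoters and in 1.3% of all promoters and 0.855% of those with a constant region. The related element of the ERR receptors, TCAAGGTCA, was in 1, that of Atp5g3 (chr2:73911356-73911392, minus strand), and in 0.334% of all and 0.236% of those with a constant region. The promoter of Atp5g3 carries it in reverse, as the capitals mark. AP-1, TGANTCA, was in 8.75%, against 6.99% of all promoters and 4.69% of those with a constant region. These letters were counted in fixed windows, and a match is not a bound site.
Atp5g3: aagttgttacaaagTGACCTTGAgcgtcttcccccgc

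Calls of peaks gave few differences between the groups. A region was termed gained when called in 3 of 3 libraries of one group and in 0 of 3 of the other, and lost in the opposite case. A single region cannot reach an exact p below 0.1 in such a comparison, so these are counts without a test. Of the 30 respiratory gene regions not called everywhere, 0 were gained in untreated Nur77 against untreated GFP, against 0.471% of the 49664 inconstant regions of the genome, and 1 was lost, against 5.21%. In Nur77 LPS against GFP LPS 0 were gained and 0 lost, against 0.465% and 3.34%. In GFP LPS against untreated GFP 0 were gained and 1 was lost, against 2.99% and 1.56%. In Nur77 LPS against untreated Nur77 0 were gained and 0 lost, against 2.97% and 0.705%.

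The region lost in untreated Nur77 lay 42 bp from Cox6b2 (chromosome 7, 4750884 to 4751750), at the end away from its annotated start. It was called in 0 of 3 Nur77 LPS libraries, 1 of 3 GFP LPS libraries (percentile 22.9 in replicate 2), 0 of 3 untreated Nur77 libraries and 3 of 3 untreated GFP libraries (44.1, 39.2 and 21.9). Cox6b2 encodes the testis form of subunit 6b, and the peak was weak where present, at authors' folds of 6.54 to 9.9. Atp5a1 encodes the alpha subunit of the F1 head, and a region at one end of it was called in all 12 libraries. The region lost with LPS in the GFP line lay 82 bp from its other end. It was called in 0 Nur77 LPS, 0 GFP LPS, 1 untreated Nur77 and 3 untreated GFP libraries, at folds of 4.21 to 6.26, near the lower limit of the lists. Across 6 libraries against 6, 14 regions called in 4 to 8 libraries could be tested. By two-sided Fisher's exact test 0 passed an adjusted p of 0.05 for either line or LPS, as did 0% of all 20292 regions tested (Benjamini-Hochberg). At an unadjusted p under 0.05, 0 of the 14 passed in either test. Of the 20292 regions of the genome, 1618 did for line and 1429 for LPS, and 14 regions are too few to tell 0 from such shares.

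Taken over the 30 inconstant regions, calls were fewest in Nur77 LPS. Its libraries called 12, 5 and 10 of the 30, GFP LPS 9, 12 and 17, untreated Nur77 18, 5 and 19, and untreated GFP 16, 24 and 24. Untreated GFP libraries were high and Nur77 LPS libraries low, without overlap between these groups, while every group overlapped with at least 1 other. The background heights in the same order were 0.988, 0.665 and 0.612, then 0.411, 0.676 and 1.45, then 0.759, 0.402 and 1.254, then 0.919, 0.964 and 1.14, and their part in the counts was not tested. As shares of possible calls these are 30%, 42.2%, 46.7% and 71.1%. Over the 4134 inconstant gene-end regions of all genes the shares were 45.0%, 53.8%, 45.4% and 64.2% in the same order. Over all 49664 inconstant regions they were 42.9%, 55.8%, 37.1% and 57.8%, where untreated Nur77 and not Nur77 LPS had the fewest.

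**Figure D3:**
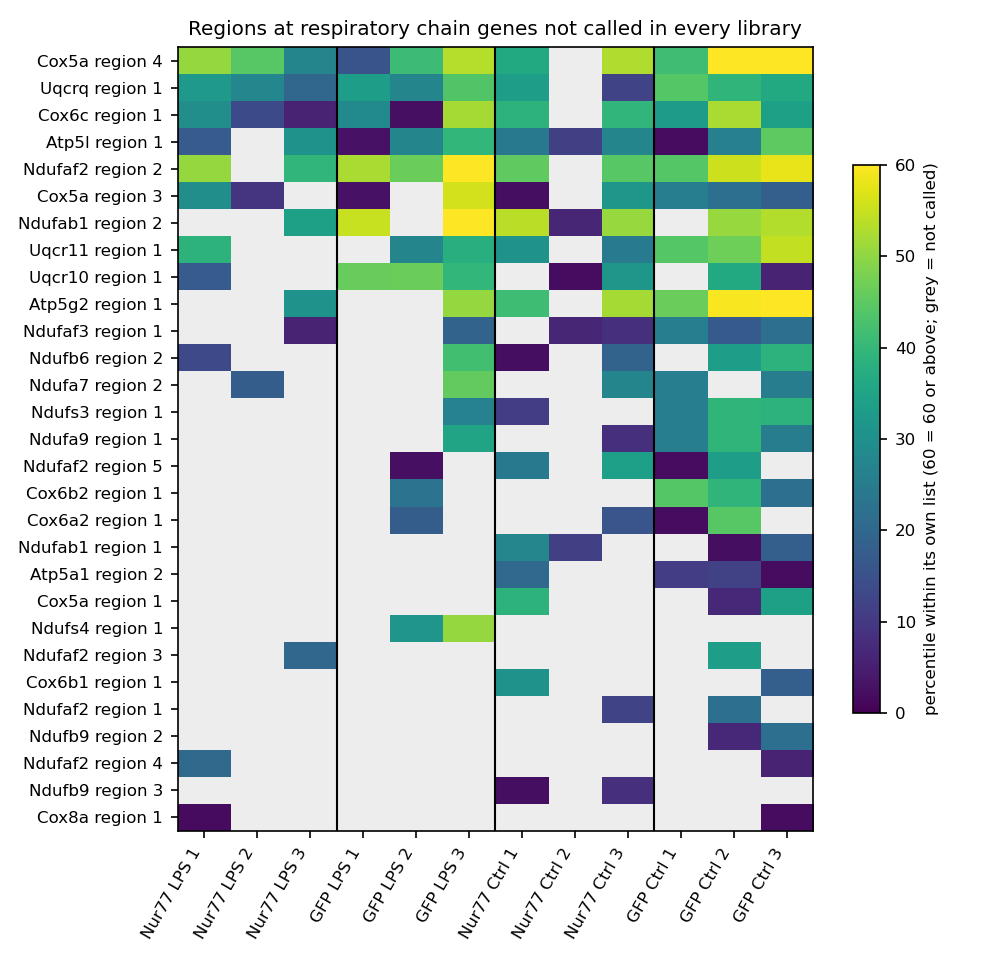
The 30 regions at respiratory chain and ATP synthase genes that were not called in every library (rows, ordered by number of calls, with 1 not drawn) in the 12 libraries (columns, 3 a group). Colour is the percentile of the peak within its own list, with grey where no peak was called. Nur77 LPS libraries called 5 to 12 of the 30 and untreated GFP libraries 16 to 24.

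Ranks were compared over the 26378 regions called in all 12 libraries, which include 99 regions of the respiratory genes. Each region was ranked by -log10 q within a library among these same regions, and the rank was turned into a normal score, on which 1 unit is 1 SD of the ranks. A single limma fit over the 4 groups gave changes, standard errors (SE) and p-values adjusted over all 26378 regions by Benjamini-Hochberg. Since ranks are relative, a region can lose rank because others gain. Near the bottom or top of the ranking, a small shift in percentile gives a large change in score. For sample values, the percentile among these 26378 regions is used. Where groups of 3 libraries are said not to overlap, this describes the values. Such a separation cannot reach an exact p below 0.1 for a single region.

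Few regions of respiratory genes passed the test in the LPS comparisons. In GFP LPS against untreated GFP, 0 of 99 regions rose, against 9.57% of all regions, and 3 fell, against 6.99%. In Nur77 LPS against untreated Nur77, 1 rose, against 7.58%, and 1 fell, against 4.92%. Most of the 99 lie at gene ends, where calls were fewer over all genes. Of the 94 at gene ends, 0 rose and 3 fell in the GFP line, against 3.08% and 6.31% of the 10161 constant gene-end regions. In the Nur77 line 0 rose and 1 fell, against 2.61% and 3.14%. In the GFP line the median change was -0.16, with 84 of 99 changes below 0. Over all 10161 constant gene-end regions the median was -0.11, with 7189 changes below 0. In the Nur77 line the median was -0.01, beside -0.06 for gene ends, and its sign was not stable. It was 0.03 when ranked among gene ends only, and 0.02 without Nur77 LPS replicate 2, untreated Nur77 replicate 1 or untreated Nur77 replicate 3.

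Cox4i2 lost rank with LPS in both lines. Its second region (chromosome 2, 152763376 to 152764940), at an end of the gene and within 1 kb of Bcl2l1, stood at 6.4, 15.2 and 3.87 in Nur77 LPS and at 31.4, 34.0 and 25.6 in untreated Nur77. In the GFP line it stood at 5.12, 11 and 9.18 with LPS and at 32.3, 22.9 and 24.9 without. All 6 LPS libraries lay below all 6 untreated libraries. The change was -0.92 (SE 0.18, limma adjusted p = 0.00539) in the Nur77 line and -0.77 (SE 0.18, adjusted p = 0.0113) in the GFP line. The authors' folds were 11.6, 11.4 and 8.07 in Nur77 LPS, against 20.5, 12.8 and 19.5 in untreated Nur77, and 6.38, 10.1 and 13.9 in GFP LPS, against 17.7, 16.8 and 19.2 in untreated GFP.

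The neighbouring region of Cox4i2 (152765305 to 152768498), the strongest at the gene, did not pass the test in either line. It stood at 43.9 ± 12.1 in Nur77 LPS and 31.8 ± 5.82 in untreated Nur77 (SD, n = 3), a change of 0.32 with an adjusted p of 0.312 by limma. In the GFP line it stood at 39.6 ± 4.46 with LPS and 43.4 ± 12.4 without. The Cox4i2 loss in the GFP line missed the threshold without GFP LPS replicate 1 (-0.60, limma adjusted p = 0.0603) and when regions were ranked among gene-end regions only (-0.55, adjusted p = 0.0572).

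Uqcrb, a small complex III subunit known as the ubiquinone-binding protein, fell with LPS in the GFP line. Its region (chromosome 13, 66904829 to 66905809, within 1 kb of Mterf3 and Gm10767) stood at 44.4, 45.9 and 41.4 in GFP LPS and at 55.1, 71.9 and 61.7 in untreated GFP, without overlap. In the Nur77 line it stood at 56.4, 42.1 and 60.4 with LPS and at 58.0, 63.1 and 53.9 without, and the groups overlapped. The change in the GFP line was -0.49 (SE 0.15, limma adjusted p = 0.0414). With 1 library left out it passed in 4 of 12 fits, those without Nur77 LPS replicate 2 or 3, untreated Nur77 replicate 2 or untreated GFP replicate 1. Without untreated GFP replicate 2 it was -0.36 with a limma adjusted p of 0.164.

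The third loss in the GFP line was that of the region past the end of Ndufs7 (chromosome 10, 80257527 to 80265665). It stood at 97.2, 98.2 and 98.8 in GFP LPS and 99.5, 99.3 and 99.1 in untreated GFP. The groups did not overlap, yet all values lay in the top 3 percentiles. The change was -0.37 with a limma adjusted p of 0.0453, and with 1 library left out it passed in 2 of the 10 fits that kept the region, those without GFP LPS replicate 3 or untreated Nur77 replicate 2. Without GFP LPS replicate 1 it was -0.28 with a limma adjusted p of 0.147. With background height as a covariate it was -0.32 with a limma adjusted p of 0.0772. Ranking among gene-end regions only left 0 losses in the GFP line.

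Ndufaf7, an arginine methyltransferase needed early in complex I assembly, gained rank with LPS in the Nur77 line. The region lies inside the gene (chromosome 17, 78938550 to 78939676). It stood at 26.0, 20.4 and 29.2 in Nur77 LPS and at 12, 9.85 and 4.92 in untreated Nur77, without overlap. In the GFP line it stood at 44.4, 22.1 and 37.9 with LPS and at 23.3, 17.4 and 31.6 without, with overlap. The change in the Nur77 line was 0.70 (SE 0.18, limma adjusted p = 0.0274). It missed the threshold without Nur77 LPS replicate 1 or 3 or untreated Nur77 replicate 2 or 3, at 0.56 to 0.68 with adjusted p-values of 0.075 to 0.102. The region at the Ndufaf7 start, which is shared with Cebpz, stood at 72.8 ± 5.28 in Nur77 LPS and 76.8 ± 5.03 in untreated Nur77 (SD, n = 3).

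**Figure D4:**
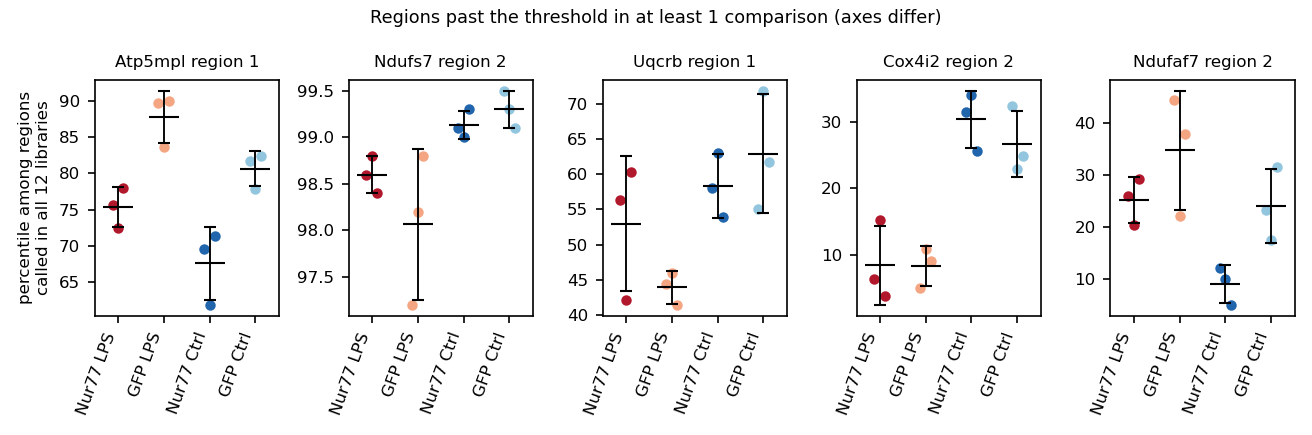
Percentile among the 26378 regions called in all 12 libraries, for the 5 regions past the threshold in at least 1 comparison (points are libraries, bars mean and SD of 3, axes differ). Cox4i2 region 2 is lower in all LPS libraries, at 3.87 to 15.2, than in all untreated libraries, at 22.9 to 34.0.

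The other large changes with LPS did not pass the test. Some lay at low ranks, where small shifts weigh more. Ndufa9, for one, stood at 2.84, 4.61 and 0.741 in GFP LPS and at 5.15, 4.21 and 15.7 in untreated GFP. In the GFP line the lowest were the second Ndufb7 region at -0.56, Ndufa9 at -0.55 and the second Ndufaf8 region at -0.55. The highest were the assembly factor Ndufaf3 at 0.39 (limma adjusted p = 0.0676), the first Atp5d region at 0.32, Atp5mpl and the inner Ndufaf7 region at 0.31 each, and Cox5b at 0.19. In the Nur77 line the lowest were the Cox4i2 region inside the gene at -0.47, Ndufb8 at -0.44, Uqcr11 at -0.42 and the second Ndufaf8 region at -0.39. The highest were Ndufs4 at 0.55, the second Ndufb7 region at 0.39, the Cox4i2 region outside the gene at 0.32 and Ndufb10 at 0.28. The Ndufb10 region, 6643 bp wide, is shared with Rnf151 and Rps2. By role, 1 of 10 complex I core regions, 1 of 8 complex III regions and 1 of 5 regions of tissue-restricted isoforms fell in the GFP line. None of the 34 accessory, 11 common complex IV, 8 F1 head or 13 stalk and membrane regions passed in either line.

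The line comparisons gave 1 call outside the LPS contrasts, on chromosome 12. In untreated Nur77 against untreated GFP 0 of 99 regions were higher, against 2.49% of all regions, and 0 were lower, against 4.19%. The shares at gene ends of all genes were 1.4% and 2.16%. By unadjusted limma p-values 12 of 99 lay under 0.05, against 5406 of all 26378 regions and 1365 of the 10161 at gene ends. In Nur77 LPS against GFP LPS 0 were higher, against 2.49%, and 1 was lower, against 4.73%, with 2.22% and 2.55% at gene ends. The medians of the 99 changes were -0.06 without LPS and 0.07 with it, beside 0.02 and 0.08 for all constant gene-end regions. Single libraries moved these medians. That without LPS was -0.004 without untreated Nur77 replicate 2, and that with LPS was 0.03 without Nur77 LPS replicate 1 or GFP LPS replicate 1 and 0.10 without Nur77 LPS replicate 2.

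The call was Atp5mpl, a small proteolipid bound to the membrane part of ATP synthase (chromosome 12, 111966062 to 111967734, at a gene end). It stood at 75.7, 72.4 and 78.0 in Nur77 LPS and at 89.8, 83.6 and 90.0 in GFP LPS. Without LPS it stood at 69.6, 61.8 and 71.3 in untreated Nur77 and at 81.7, 77.9 and 82.4 in untreated GFP. The Nur77 libraries lay below the GFP libraries in both treatments, without overlap. The change was -0.49 after LPS (SE 0.12, limma adjusted p = 0.0327) and -0.41 without (SE 0.12, adjusted p = 0.0713). The call after LPS was lost without any 1 of the Nur77 LPS libraries or GFP LPS replicates 1 or 3, at -0.43 to -0.53 with adjusted p-values of 0.0595 to 0.109.

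Ndufb1, the other constantly accessible gene on this chromosome, encodes an accessory subunit of complex I. Its region, shared with Cpsf2, stood at 79.4, 74.4 and 82.6 in Nur77 LPS and at 83.6, 84.6 and 90.1 in GFP LPS. Without LPS it stood at 85.0, 67.4 and 82.7 in untreated Nur77 and at 88.7, 88.4 and 93.1 in untreated GFP. Each Nur77 group lay below its GFP group without overlap, but the changes of -0.29 and -0.49 did not pass (limma adjusted p = 0.329 and 0.1). Cox8c, the third gene there, had no region. Of all 1054 constant regions on chromosome 12, 400 were lower and 2 higher in Nur77 LPS against GFP LPS, with a median of -0.47, and 329 were lower and 4 higher without LPS, with a median of -0.43. On the other chromosomes the median was 0.04 after LPS and 0.03 without. The changes of both genes lay on the side of their chromosome's median. Of all 25324 constant regions on other chromosomes, 2.59% were higher and 3.34% lower after LPS, and 2.58% and 3.06% without. Among the 97 regions of the respiratory genes there, 0 passed in either line comparison.

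Of those 97, the lowest changes without LPS were the second Ndufb7 region at -0.77 (SE 0.28, limma adjusted p = 0.133), the inner Ndufaf7 region at -0.66 (SE 0.18, adjusted p = 0.0525) and Cox6b1 at -0.52 (SE 0.32, adjusted p = 0.404). Among the highest were Atp5k at 0.36, Ndufb8 at 0.32, Cox7a1 at 0.31 and the first Ndufv2 region at 0.26, with limma adjusted p-values of 0.19 to 0.411. That Ndufv2 region lies 746 bp outside the gene, beside Ankrd12. The region at the Ndufv2 start had means of 86.7 in untreated Nur77 and 87.6 in untreated GFP. After LPS the highest were Ndufaf1 at 0.53, Ndufa9 and Ndufa1 at 0.47 each, Cox7a1 at 0.44 (SE 0.13, limma adjusted p = 0.0613) and the first Ndufb6 region at 0.30. The lowest were the inner regions of Cox4i2 at -0.29 and Ndufaf7 at -0.27. That Ndufb6 region lies 250 bp outside the gene, beside Smim27 and Topors. The region at the Ndufb6 start had means of 48.9 in Nur77 LPS and 44.6 in GFP LPS. Cox7a1 stood at 80.7, 73.2 and 83.9 in Nur77 LPS and at 58.1, 70.3 and 66.0 in GFP LPS. It stood at 71.2, 77.4 and 77.0 in untreated Nur77 and at 64.7, 61.5 and 67.0 in untreated GFP. The Nur77 libraries lay above the GFP libraries in both treatments, without overlap, but neither change of Cox7a1 passed the test.

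**Figure D5:**
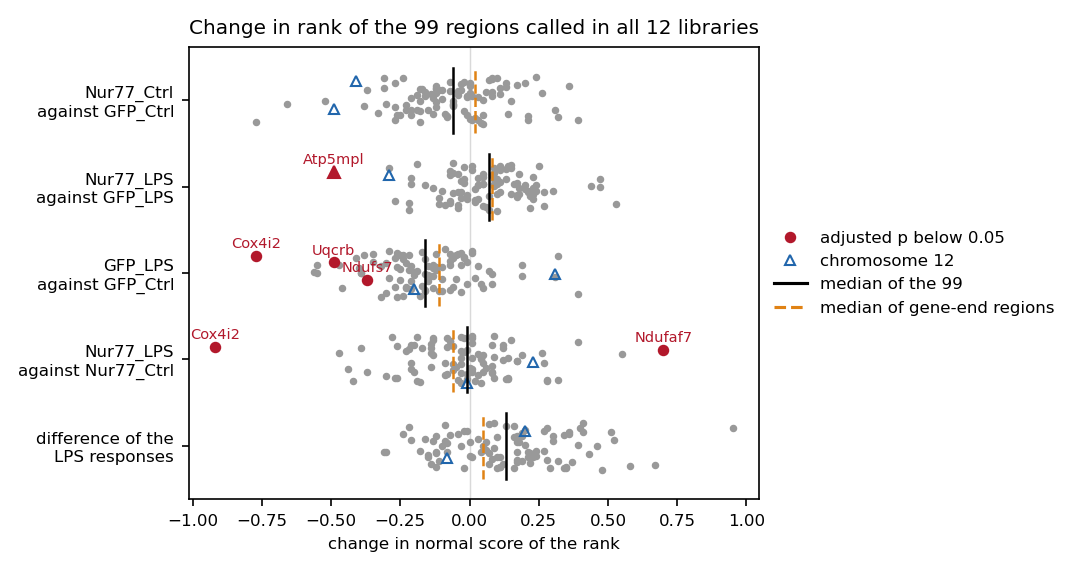
Change in the normal score of the rank for the 99 regions of respiratory chain and ATP synthase genes called in all 12 libraries, in the 4 comparisons and in the difference of the LPS responses (Nur77 line minus GFP line). Red symbols have an adjusted p below 0.05 and triangles are on chromosome 12. Black lines are medians of the 99 and dashed lines medians of the 10161 constant gene-end regions. The median lies lowest, at -0.16, in GFP LPS against untreated GFP, and the largest called change in size is that of Cox4i2 at -0.92.

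The LPS responses of the lines were compared directly. For the difference, Nur77 line minus GFP line, 0 of 99 regions passed, as did 0% of all regions, and the lowest adjusted p among the 99 was 0.608 by limma. At an unadjusted p under 0.05 there were 5 of the 99 and 1944 of all 26378. Over the 10161 constant gene-end regions the median difference was 0.05, with 5989 above 0. The median of the 99 differences was 0.13, with 71 above 0, and it was 0.07 without untreated Nur77 replicate 2. The largest was the second Ndufb7 region, past the end of the gene beside Tecr, at 0.95 (95% interval 0.08 to 1.82, limma adjusted p = 0.638). It stood at 11.5, 15.2 and 2.83 in Nur77 LPS, 1.37, 7.54 and 15.2 in GFP LPS, 6.81, 3.96 and 1.92 in untreated Nur77, and 20, 16.1 and 12.3 in untreated GFP. The treated and untreated libraries overlapped within each line. Ndufa1 followed at 0.67, Ndufaf1 at 0.58, Ndufb3 at 0.52 and Ndufc1 at 0.51. The lowest were the first Atp5d region at -0.31, Ndufaf3 at -0.30, Cox5b at -0.24, the second Atp5b region at -0.22 and the inner Cox4i2 region at -0.21.

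The genes around the chain were counted in the same fit, from lists of complex II, cytochrome c, other assembly factors, coenzyme Q synthesis and regulators (69 genes, all with a constant region). Of their 92 regions, 3 rose (3.26%) and 4 fell (4.35%) with LPS in the GFP line, and 2 rose (2.17%) and 3 fell (3.26%) in the Nur77 line. Of all regions, 9.57% rose and 6.99% fell in the GFP line, and 7.58% and 4.92% in the Nur77 line. At gene ends of all genes the shares were 3.08% and 6.31% in the GFP line, and 2.61% and 3.14% in the Nur77 line. The 4 regions of complex II and 2 of cytochrome c did not pass in any comparison. Coq2, which attaches the side chain in coenzyme Q synthesis, had a region inside the gene, 1281 bp from one end, that rose by 0.82 in the Nur77 line (SE 0.15, limma adjusted p = 0.00425) and by 0.98 in the GFP line (SE 0.15, adjusted p = 0.00105). A second Coq2 region rose in the GFP line by 0.36 (adjusted p = 0.0371), and one inside Coq5, 1530 bp from an end, rose in the Nur77 line by 0.49 (adjusted p = 0.0381).

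The end region of Pet117, a complex IV assembly factor, within 1 kb of Kat14, fell with LPS in both lines, by 0.41 in the Nur77 line and 0.46 in the GFP line. Coa3 and Uqcc3, assembly factors of complexes IV and III, fell in the GFP line by 0.48 and 0.55, where the Coa3 region is shared with Cntd1 and Wnk4. A region inside Nubpl, a complex I assembly factor, fell by 0.59 in the Nur77 line and 0.75 in the GFP line (limma adjusted p of 0.0122 to 0.0495 for these 6 calls). Regions of Ppargc1b, a coactivator of respiratory genes, went in opposite directions at separate sites, one at -0.58 in the Nur77 line (limma adjusted p = 0.0138) and one at 0.49 in the GFP line (adjusted p = 0.0134).

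Between the lines, 2.49% of all regions were higher in Nur77 and 4.73% lower after LPS, and 2.49% and 4.19% without. At gene ends of all genes the shares were 2.22% and 2.55% after LPS, and 1.4% and 2.16% without. Of the 92 regions of the lists, 1 was higher (1.09%) and 4 lower (4.35%) both with LPS and without. All 4 lower regions in each case lie on chromosome 12. They belong to Nubpl, Cox16, Coq6 and, without LPS, Yy1, with changes of -0.51 to -0.84, and the Cox16 region is shared with Gm20498 and that of Coq6 with Fam161b. Cox16, an assembly factor of complex IV, changed by -0.53 after LPS (limma adjusted p = 0.00783) and -0.63 without (adjusted p = 0.00269). The region higher in Nur77 was at Coq3 after LPS (0.53, adjusted p = 0.0449) and at Coq2 without (0.56, adjusted p = 0.0462).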

How the data were processed

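Per the labels, 12 ATAC-seq libraries (4 groups of 3) were tagmented at 37 °C for 45 min, and DNA pieces below 700 bp were purified. The submitters' processing notes name cutadapt 2.6, DiffBind 3.0.15 and mm10, while aligner and peak caller were not given in the sources used here. According to the names of the deposited peaks, reads had a mapping quality of 20, duplicates and mitochondrial reads were taken out, and the q-value limit was 0.001. The authors called peaks per library. The deposited fold is the authors' ratio of the summit over background, and the deposited -log10 q is the authors' value at the summit; both served only within a list. Summit positions are also the authors'.

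Overlapping or touching peaks were merged (100374 regions) and regions in at least 2 lists kept. Where several peaks of a library fell in a region, the strongest counted. Genes come from RefSeq GRCm38.p6, without strand; promoters and start sites from its promoter table, which has entries for 75 of the 92 genes. Background height is the value that makes fold times height plus 1 a whole number of reads (tolerance 0.1 reads, 100.0% of folds in every list). Total reads were not used here. The rank fit used limma 3.58.1 in R 4.3.3, and all else pandas 2.3.3, scipy 1.17.1 and numpy 2.4.6 under Python 3.11.15; both were tested on simulated data. Libraries were not paired by the replicate numbers in their titles.

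Members, lists, tests and the naming rule were chosen with earlier results of these data known. Named are genes without a constant region, gained or lost regions, the 5 highest and 5 lowest genes, regions past the threshold with the 5 largest changes each way, chromosome 12 genes, list genes past the threshold, and markers (1 gene is not reported by name here); Cox4i2 and Ndufaf7 neighbours, Atp5g2, Atp5g3 and role extremes were added after their values were seen. Alternatives were ranking by fold, among gene ends or as percentiles, background height as covariate, a replicate block, a -log10 q of 5, trimmed lists, regions covered to 50%, regions in 3 lists, a distance of 0, and each library left out.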

Additional observations from a re-analysis of the deposited data

How the results depend on the processing

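None of the 6 changes past the threshold reversed under an alternative that ranked its region; the median of the 99 changes with LPS in the Nur77 line did, at -0.01 as reported and 0.03 among gene ends only. Requiring peaks to cover 50% of a region left 59 regions constant in place of 99, and then 3 regions were lost in untreated Nur77 against untreated GFP and 2 in GFP LPS against untreated GFP; the cause was not tested. With lists trimmed to the shortest, 1 region was gained in untreated Nur77 and 2 were lost in GFP LPS. A -log10 q of at least 5, or regions overlapping the gene span, left 0 lost in GFP LPS, and regions overlapping the span also 0 lost in untreated Nur77. With 1 library left out, the constant regions numbered 98 to 102. Lost regions ran from 1 to 3 in untreated Nur77 against untreated GFP, 0 to 1 in Nur77 LPS against GFP LPS, 1 to 5 in GFP LPS against untreated GFP and 0 to 2 in Nur77 LPS against untreated Nur77. Gained regions ran from 0 to 1 in untreated Nur77 against untreated GFP and in GFP LPS against untreated GFP, and were 0 otherwise. The highest counts lost were 5 without GFP LPS replicate 3, 4 without untreated GFP replicate 1 and 3 without untreated Nur77 replicate 1, where a smaller group is called or missed more easily by construction.

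For ranks, regions lower in untreated Nur77 numbered 1 among gene ends only, 2 on the percentile scale and 1 at a -log10 q of 5, and 0 to 1 with 1 library left out. Regions higher in Nur77 LPS against GFP LPS numbered 1 on the percentile scale and 1 in trimmed lists, and 0 to 1 with 1 left out; lower ones ran from 0 to 1. Regions lower in GFP LPS against untreated GFP numbered 0 among gene ends only, 5 on the percentile scale and 1 in trimmed lists, and 0 to 5 with 1 left out; higher ones ran from 0 to 1. In Nur77 LPS against untreated Nur77, higher regions were 0 among gene ends only, where the Ndufaf7 region is not ranked, and 0 on the percentile scale, and lower ones were 0 in trimmed lists, where the Cox4i2 region is not ranked; with 1 left out they ran from 0 to 1 and from 1 to 2. Cox4i2 in the Nur77 line passed in all 12 such fits. Regions lower in GFP LPS numbered 5 without untreated Nur77 replicate 2 and 0 without GFP LPS replicate 1. With a replicate block, 2 regions were lower in untreated Nur77 against untreated GFP (Atp5mpl and Ndufaf7) and 1 in GFP LPS against untreated GFP (Cox4i2). The numbers did not pair the libraries: same-number deviations correlated at -0.16 to 0.14, with 2 of 18 pairs above 0.1, and 5 of 12 libraries correlated best with their own number. With background height as covariate, 2 regions were lower in GFP LPS (Uqcrb and Cox4i2). Nur77 LPS replicate 2 and untreated Nur77 replicate 2 each called 5 of the 30 inconstant regions, and the part of depth in this was not tested.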
